A study of Mus musculus with 2 samples.

Results

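The 10 heat shock and chaperone genes described here were followed in Cajal-Retzius (CR) cells of the mouse hippocampus, the transient, Reln-expressing neurons that sit along the hippocampal fissure and are largely lost after birth. The members, chosen by symbol from the 32285 genes of the files, were Hspa1a, Hspa1b, Hsph1, Dnajb1, Hspa8, Hsp90aa1, Hsp90ab1, Hspa5, Hspd1 and Hspe1, and all 10 were present under a single identifier. The study asked what loss of the transcriptional repressor capicua (Cic) does to these cells, and sequenced single cells at postnatal day 14. The control library came from ΔNp73-Cre; Cic flox/+; tdT mice, which carry 1 floxed allele (3 males and 1 female). The knockout library came from ΔNp73-Cre; Cic flox/flox; tdT mice (2 males and 2 females). The Cre driver, active in CR cell progenitors, also switched on the tdTomato reporter in both genotypes, hippocampi were dissociated with papain, and tdTomato-positive cells that excluded DAPI were sorted. The mice of both genotypes were littermates. The 4 animals of a genotype were pooled into 1 library, and both libraries carry the same batch label, so no difference between genotypes has a replicate check, no test was possible, and every interval given here is a 95% interval for counting error only. The paper reported, at a later postnatal age, that CIC was lost from most but not all hippocampal CR cells of this line. Some knockout barcodes may therefore come from cells that kept it. Cic itself was at 58.9 counts per 1000000 UMIs (CPM; 53.2 to 65.1) in control and 51.3 CPM (43.2 to 60.5) in knockout CR barcodes, and since reads from the end of a transcript can lie outside a deleted stretch, this level does not check the genotype.

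Molecules were counted by unique molecular identifiers (UMIs). A CR barcode had at least 2000 UMIs and at least 5 Reln UMIs, which gave 1003 barcodes in the control library and 390 in the knockout library, with medians of 6224 and 6664 UMIs. Faint barcodes had 500 to under 2000 UMIs (191 and 51, medians 811 and 825), and 29040 and 75813 droplets of 20 to 100 UMIs were taken as the measure of free RNA. The 2 libraries shared 0 CR and 0 faint barcodes. All 8 CR markers (Trp73, Lhx1, Lhx5, Calb2, Ebf3, Nhlh2, Ndnf and Cacna2d2) were detected in at least 25% of CR barcodes of both libraries. They summed to 6960 and 6845 CPM there, and the astrocyte list to 36.7 and 55.0 CPM. The lists of other cells with the highest sums were the mural (81.9 and 76.3 CPM), precursor (60.6 and 78.5 CPM) and microglial (63.0 and 61.8 CPM) lists. The mural and precursor lists each had 1 gene detected in at least 25% of CR barcodes. CPM is scaled to the UMIs outside mitochondrial and ribosomal protein genes, and levels are not scaled to transcript length because each UMI stands for 1 captured transcript end.

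Heat shock proteins are molecular chaperones. Members of the HSP70 family bind unfolded stretches of other proteins, J proteins such as DNAJB1 deliver those clients and start the ATPase cycle, and HSP110 proteins such as HSPH1 exchange the nucleotide so that the client is released. HSP90 proteins finish the folding of kinases and receptors. Some of these genes are nearly silent at rest and are switched on by heat shock factor 1 when misfolded protein builds up, while others serve everyday folding. Neurons are known for a high threshold of this response.

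The HSP70 genes most strongly tied to that response are near-copies. Hspa1b (ENSMUSG00000090877; chromosome 17 of GRCm38, 34956436 to 34959238, minus strand) and Hspa1a (ENSMUSG00000091971; 34969190 to 34972156, minus strand) each have a single exon and lie 9951 bases apart. Their coding sequences were 99.4% identical, whereas the last 300 bases of the transcripts aligned with 49.8% identity, close to the 48.3% of Hspa1a against the constitutive Hspa8. Reads from the coding part therefore cannot be given to either copy, and the split between the copies rests on the ends of the transcripts. The 250 bases before the 2 starts differed at 3 positions. Heat shock factor binds inverted repeats of GAA, and the stretches printed here show where this unit or a related element stood before the RefSeq start (GRCm38.p6). They are shown because they set the stress-inducible members, the mitochondrial pair and the member of the endoplasmic reticulum (ER) side by side. Capitals mark GAANNTTC in Hspa1a (chr17:34972223-34972290, minus strand) and Hspa1b (chr17:34959305-34959372, minus strand), TTCNNGAA in Hsph1 (chr5:149636337-149636399, minus strand), the overlapping units of Hspe1 (chr1:55088029-55088106, plus strand) and the ER stress element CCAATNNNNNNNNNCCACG of Hspa5 (chr2:34771995-34772073, plus strand).
Hspa1a: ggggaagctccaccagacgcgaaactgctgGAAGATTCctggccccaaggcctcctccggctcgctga
Hspa1b: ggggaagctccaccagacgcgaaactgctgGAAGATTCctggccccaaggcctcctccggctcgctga
Hsph1: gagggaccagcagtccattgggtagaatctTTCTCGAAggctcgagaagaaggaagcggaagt
Hspe1: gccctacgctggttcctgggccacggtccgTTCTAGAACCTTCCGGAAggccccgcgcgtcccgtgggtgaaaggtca
Hspa5: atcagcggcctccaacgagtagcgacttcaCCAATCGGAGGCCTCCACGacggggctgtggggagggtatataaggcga

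In GENCODE, Hspe1 and Hspd1 start 111 bases apart on opposite strands and overlap, so the stretch printed for Hspe1 lies within the span of Hspd1. The RefSeq starts differ from these. The stretch lies in the RefSeq promoter windows of both genes, chr1:55087898-55088197 for Hspe1 and chr1:55087883-55088182 for Hspd1. Of the 7 members with a promoter in the RefSeq table (300 bases from 250 before to 50 after the start, both strands searched), 5 held GAANNTTC, against 7.86% of all 32817 promoters, and 3 held TTCNNGAA, against 8.51%. The 3-unit form GAANNTTCNNGAA, which contains both shorter forms, was in 3 members (Hspd1, Hspe1 and Hsph1) and in 0.603% of promoters. In Hsph1 the 3-unit match lay after the start. The ER stress element was found only in Hspa5 among these 7 members and in 0.119% of promoters. Dnajb1 matched none of these letters in this window, and Hspa8, Hsp90aa1 and Hsp90ab1 had no entry in the table. A match is a description of the letters and does not show that a factor binds there.

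In CR cells 3 abundant cytosolic chaperones made up most of the signal. Hsp90ab1 (ENSMUSG00000023944; chromosome 17, 45567775 to 45573271, minus strand, 11 exons), the constitutive HSP90, was at 1212 CPM (1185 to 1239) in control and 1408 CPM (1364 to 1453) in knockout CR barcodes. Hspa8 (ENSMUSG00000015656; chromosome 9, 40800984 to 40810087, plus strand, 9 exons), the HSP70 of everyday folding and clathrin uncoating, was at 535 CPM (518 to 553) and 629 CPM (600 to 660). Hsp90aa1 (ENSMUSG00000021270; chromosome 12, 110690605 to 110702728, minus strand, 11 exons), the more inducible HSP90, was at 528 CPM (511 to 546) and 632 CPM (603 to 663). These 3 genes summed to 2275 CPM in control and 2670 CPM in knockout, of 2913 CPM (2872 to 2954) and 3311 CPM (3244 to 3380) for all 10 members. Hsp90ab1 stood above the other 2 in both libraries, and the intervals of Hspa8 and Hsp90aa1 overlapped in each.

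Hspa5 (ENSMUSG00000026864; chromosome 2, 34771970 to 34777547, plus strand, 9 exons), which encodes the ER HSP70 known as BiP, came next at 316 CPM (303 to 330) in control and 307 CPM (286 to 328) in knockout. The mitochondrial pair followed: Hspd1 (ENSMUSG00000025980; chromosome 1, 55077835 to 55088243, minus strand, 12 exons), the HSP60 chaperonin, was at 94.4 and 113 CPM, and Hspe1 (ENSMUSG00000073676; 55088132 to 55091307, plus strand, 4 exons), its HSP10 lid, was at 90.4 and 83.5 CPM. GENCODE lists 5 named pseudogenes of Hspd1 and 6 of Hspe1, so reads of these 2 genes may have been split or discarded. Among the stress-inducible members, Hsph1 (ENSMUSG00000029657; chromosome 5, 149614287 to 149636376, minus strand, 19 exons) was at 55.9 and 58.2 CPM, Hspa1a at 32.6 and 33.6 CPM, Hspa1b at 22.7 and 27.1 CPM, and Dnajb1 (ENSMUSG00000005483; chromosome 8, 83608193 to 83612653, plus strand, 3 exons) at 25.4 and 19.5 CPM. Hspa1b and Dnajb1 held the lowest places in both libraries, with intervals that overlapped, and the interval of Dnajb1 also reached that of Hspa1a in control. In knockout the interval of Hspa1b (21.3 to 34.0 CPM) overlapped that of Hspa1a (27.1 to 41.2 CPM). An antisense gene over Hspa1a, Gm20481, had 2 UMIs in control and 1 in knockout CR barcodes.

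**Figure D1:**
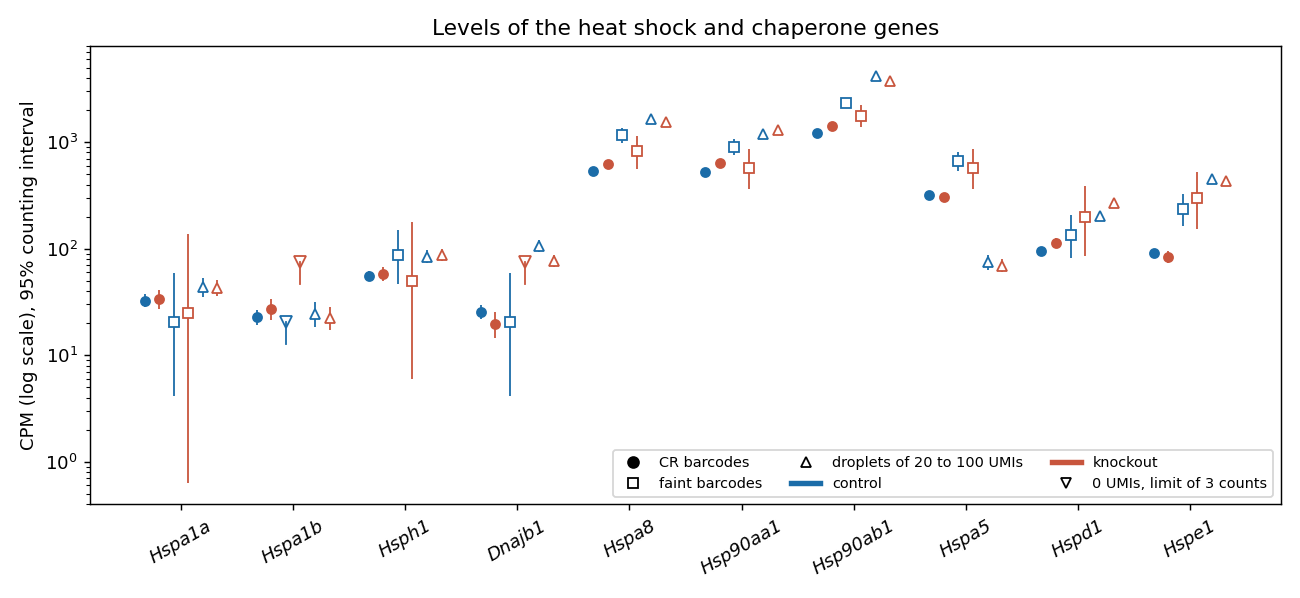
CPM on a log scale (vertical axis) of each of the 10 genes (horizontal axis) in CR barcodes (filled circles), faint barcodes (open squares) and droplets of 20 to 100 UMIs (open triangles) of the control (blue) and knockout (red) libraries, with 95% counting intervals. Downward triangles mark 0 UMIs at the limit that 3 counts would give. Hsp90ab1 is the highest at 1212 and 1408 CPM in CR barcodes, and Hspa5 is the gene that is lower in droplets than in CR barcodes of both libraries, at 74.4 and 69.4 CPM against 316 and 307 CPM.

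Between the genotypes, the levels of these genes lay close together. Of the 10 members, 0 differed by 1.5-fold or more, a size that 4.4% of the 9442 genes with at least 100 UMIs reached. The 3 abundant cytosolic members were modestly higher in the knockout library, Hsp90aa1 by 1.20-fold (1.13 to 1.27), Hspa8 by 1.18-fold (1.11 to 1.25) and Hsp90ab1 by 1.16-fold (1.12 to 1.21). Hspd1 was also higher, by 1.20-fold (1.04 to 1.37). These 4 had counting intervals above 1, against 10.9% of all genes tested, and 0 members had one below 1, against 9.43%. Counting intervals are narrower for abundant genes, so these shares depend on abundance as well as on the size of the ratio. By size, the ratios of these 4 lay above those of 80.5% to 84.6% of all genes tested. The other 6 had intervals that held 1, with ratios of 1.19 for Hspa1b (0.892 to 1.58), 1.04 for Hsph1 (0.860 to 1.26), 1.03 for Hspa1a (0.801 to 1.32), 0.969 for Hspa5 (0.894 to 1.05), 0.924 for Hspe1 (0.790 to 1.08) and 0.767 for Dnajb1 (0.554 to 1.05). The median ratio of the members was 1.10 and that of all genes tested was 1.00. Summed, the 10 members were 1.14-fold higher in the knockout library (1.11 to 1.17), and the 4 stress-inducible members were at 137 and 138 CPM, a ratio of 1.01 (0.897 to 1.14). Without the 10 barcodes of each library that held most of each gene, the ratio of Hspa1a was 0.686 (0.438 to 1.04) and that of Hspa1b 0.774 (0.473 to 1.23). This setting takes 10 of 390 knockout but 10 of 1003 control barcodes. With 1 library per genotype, a difference of this size between pools cannot be told apart from a difference between the animals pooled or between the preparations of the pools.

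The pools differed in their share of male and female animals. The sum of the 3 abundant cytosolic members was higher in the knockout library among male cells (1.20-fold, 1.15 to 1.24, 194 against 702 barcodes) and among female cells (1.19-fold, 1.14 to 1.25, 176 against 227 barcodes), as called from Xist against 4 Y-linked genes. Within each library, 0 members with at least 100 UMIs (10 in control and 7 in knockout) differed by 1.5-fold between female and male cells, against 1.25% of genes higher and 2.28% lower in control and 1.76% and 2.09% in knockout. Hspa1a, below that minimum in knockout with 85 UMIs, was 1.67-fold higher (1.06 to 2.64) in the female cells there and at 1.05 (0.740 to 1.46) in control. Hspa1b was at 1.13 (0.685 to 1.87) in knockout and 0.912 (0.583 to 1.39) in control. Over all knockout CR barcodes, 10 barcodes held 68.8% of Hspa1a UMIs, and counting intervals do not cover such uneven spread.

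The modest difference was not the same in all CR barcodes. Genes of the nuclear-encoded respiratory chain (98 genes of the Nduf, Cox, Uqcr, Atp5 and Sdh families, none a member) took at least 1.8% of UMIs in 83 control and 34 knockout barcodes, with 33 and 14 barcodes lying within 0.3 percentage points of this limit. These respiratory-high barcodes were also deeper, with medians of 13502 and 14230 UMIs against 6064 and 6420 in the rest. In the 920 and 356 other barcodes, the sum of Hspa8, Hsp90aa1 and Hsp90ab1 was 1.26-fold higher in the knockout library (1.22 to 1.31). In the respiratory-high barcodes it was at 4517 CPM in knockout and 4874 CPM in control, a ratio of 0.927 (0.878 to 0.977). Across the low class, 5 of 10 members had intervals above 1 (11.1% of genes), and in the high class 2 of the 6 members with at least 100 UMIs had intervals below 1 (7.37% of genes), Hsp90ab1 and Hspa5. Hspa5, at 0.659 (0.503 to 0.855), was the 1 member of these 6 at least 1.5-fold lower there (3.44% of genes), and 0 were as much higher (3.34%). Hspa1b reached 1.53-fold (1.12 to 2.06) in the low class, the only member past 1.5-fold there (2.96% of genes were as much higher). Of the 4 members below 100 UMIs in the high class, 3 were lower in the knockout library there, Dnajb1 at 0.518 (0.267 to 0.940, 14 against 59 UMIs), Hspa1a at 0.247 (0.0869 to 0.575, 6 against 53 UMIs) and Hspa1b at 0.129 (0.0150 to 0.501, 2 against 34 UMIs). In the high class, 4 control barcodes held 3 or more Hspa1a and Hspa1b UMIs together and 8 held 1 or 2, against 1 and 1 in knockout. Counting intervals do not cover such uneven spread. That the ratios of the sum lay on either side of 1 in these classes was not tested.

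**Figure D2:**
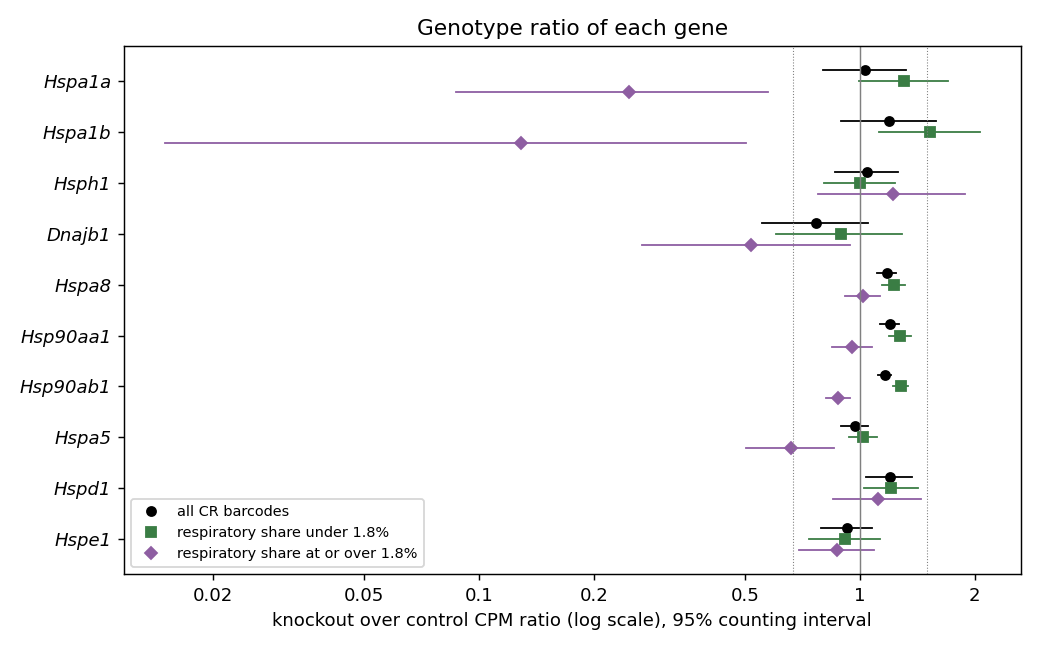
Knockout over control CPM ratio of each gene (horizontal axis, log scale) with its 95% counting interval, in all CR barcodes (black), in barcodes with a respiratory gene share under 1.8% (green) and in those at or over 1.8% (purple). The solid line marks 1 and the dotted lines 1.5-fold either way. Hsp90ab1 moves from 1.16 over all barcodes to 1.28 in the low class, while Hspa1a and Hspa1b lie at 0.247 and 0.129 with wide intervals in the high class.

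Most members differed more between these respiratory classes than between the genotypes. The 2 contrasts are unlike, since the first sets a small and deeper class against the rest of a library. Genes at large differed more there too: 24.6% were at least 1.5-fold higher in control, against 4.4% either way between genotypes. Hspe1 was at 295 CPM in respiratory-high and 56.4 CPM in the other control barcodes, 5.22-fold apart (4.43 to 6.16), and at 257 and 51.4 CPM in knockout, 5.00-fold apart (3.83 to 6.52). Hspa8 was 2.89-fold higher in the high class in control (2.69 to 3.10) and 2.39-fold in knockout (2.15 to 2.65), and Hsp90ab1 2.82-fold (2.69 to 2.95) and 1.93-fold (1.8 to 2.08). Hspd1 was 2.23-fold (1.86 to 2.67) and 2.06-fold (1.58 to 2.65) higher. Hspa5 went the other way, at 267 against 324 CPM in control (0.823, 0.719 to 0.939) and 176 against 331 CPM in knockout (0.532, 0.415 to 0.674). In all, 8 of 10 members were at least 1.5-fold higher in the high class of the control library, where 24.6% of genes were, and 5 of the 7 members with at least 100 UMIs in knockout, where 21.7% were, while 1 of those 7, Hspa5, was as much lower (25.4% of genes). The directions of Hspa1a and Hspa1b were not shared between libraries. Hspa1a was 1.96-fold higher (1.41 to 2.69) in the high class of the control. It was at 0.373 (0.133 to 0.844) in knockout, where it rested on 6 UMIs in 34 barcodes. Hspa1b was 1.76-fold higher (1.16 to 2.59) in control and at 0.148 (0.0176 to 0.554) in knockout, from 2 UMIs. The control values of both genes also rested on few barcodes, and these intervals do not cover that uneven spread. Depth moved with this class, and its part in the result was not tested.

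Ordering CR barcodes by depth gave ratios in the same direction in the control library. The abundant cytosolic members, Hspe1 and Hspa5 kept their direction in knockout as well. In the control library, barcodes with at least 10000 UMIs held 2.59-fold more Hspe1 CPM (2.01 to 3.37), 1.88-fold more Hsp90ab1 (1.75 to 2.02) and 1.86-fold more Hspa8 (1.68 to 2.08) than barcodes of 2000 to under 5000 UMIs, and Hspa5 was at 0.922 (0.790 to 1.08). There, 7 of the 9 members with at least 100 UMIs were at least 1.5-fold higher, against 21.2% of genes. In knockout, 2 of 6 were at least 1.5-fold higher (18.3% of genes), Hspa8 at 2.07 (1.70 to 2.54) and Hspe1 at 1.90 (1.19 to 3.20). Hsp90aa1 was at 1.32 (1.10 to 1.59) and Hsp90ab1 at 1.22 (1.08 to 1.36) there. Hspa5, at 0.601 (0.472 to 0.768), was at least 1.5-fold lower (9.66% of genes). Hspa1a was at 115 CPM in the shallow and 14.1 CPM in the deep knockout barcodes, against 26.4 and 53.1 CPM in control. The genotype ratio of the 4 inducible members was 2.28 (1.68 to 3.07) among barcodes of 2000 to under 5000 UMIs, 0.956 (0.806 to 1.13) among those of 5000 to under 10000 and 0.732 (0.584 to 0.914) among the deepest. The first of these rested on 76 UMIs in 71 knockout barcodes. Over all knockout CR barcodes, 10 barcodes held 68.8% of Hspa1a and 66.7% of Hspa1b UMIs. Counting intervals do not cover such uneven spread, and a difference between depth classes was not tested. That of the 3 abundant cytosolic members was 1.18 (1.08 to 1.29), 1.32 (1.27 to 1.37) and 0.900 (0.859 to 0.944).

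Early genes (14 genes such as Fos, Jun, Egr1 and Npas4, switched on within minutes by activity) gave another way to order the cells. CR barcodes were ranked by their share of early gene UMIs, and the 334 control and 130 knockout barcodes with the highest shares were set against the 335 and 130 with the lowest. The 3 abundant cytosolic members summed to 2837 against 1837 CPM in control (1.54-fold, 1.48 to 1.61) and to 3150 against 2300 CPM in knockout (1.37-fold, 1.29 to 1.45). Dnajb1 was at 48.2 against 10.0 CPM in control (4.81-fold, 3.00 to 8.07) and at 24.0 against 16.7 CPM in knockout (1.44-fold, 0.718 to 2.96). Hspe1 was 1.63-fold (1.34 to 1.99) and 2.07-fold higher (1.43 to 3.04). Hspa1a was at 41.3 against 38.2 CPM in control (1.08-fold, 0.796 to 1.47) and at 32.3 against 11.1 CPM in knockout (2.90-fold, 1.39 to 6.64). At least 1.5-fold higher were 5 of 10 members in control (12.2% of genes) and 2 of the 6 members with at least 100 UMIs in knockout (11.6% of genes). The genotype ratio of the 4 inducible members was 0.585 (0.440 to 0.767), 1.94 (1.58 to 2.37) and 0.797 (0.651 to 0.970) from the lowest over the middle to the highest shares, so it followed no single direction. Here too the intervals do not cover the uneven spread of these genes over barcodes.

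The stress-inducible HSP70 genes were not spread evenly over CR cells but sat in a small number of them. Hspa1a was detected in 64 of 1003 control barcodes (6.38%, 4.95 to 8.08) and in 29 of 390 knockout barcodes (7.44%, 5.04 to 10.5), and Hspa1b in 47 (4.69%, 3.46 to 6.18) and 28 (7.18%, 4.82 to 10.2). Among droplets, the shares with a UMI were 0.310% and 0.164% for Hspa1a and 0.169% and 0.0884% for Hspa1b, at medians of 89 and 44 UMIs. Per UMI, droplets held 43.6 and 42.8 CPM of Hspa1a and 24.3 and 22.4 CPM of Hspa1b, so these low shares do not bound the background per UMI. The mean number of Hspa1a UMIs was 0.00327 and 0.00171 per droplet, and 0.214 and 0.238 per CR barcode. The part of free RNA in these shares was not tested. The 10 control barcodes with most Hspa1a held 52.6% of its UMIs, with up to 24 in a single barcode, and the 10 of the knockout held 68.8%. For Hspa5 the same shares were 5.27% and 10.5%. This share is larger for scarcer genes and smaller libraries, and Hspa5 had 2088 and 848 UMIs against 215 and 93 of Hspa1a. Hspa1a was detected in 3.99% and 4.36% of barcodes after thinning to 2000 UMIs, where a Poisson count of its mean gives 6.28% and 6.93%. With every barcode thinned to 2000 UMIs, the variance of Hspa1a was 2.29 times its mean in control and 1.93 times in knockout, and that of Hspa1b 2.44 and 2.30 times. The ratios of the HSP70 copies lay above those of at least 94.9% of the genes with at least 100 thinned UMIs in each library, a count that the copies themselves did not reach. Other members were unevenly spread as well, Hsph1 at 1.46 and 1.95 times, Hsp90ab1 at 1.69 and 1.59 times and Dnajb1 at 2.04 times in control and 0.985 in knockout, while Hspa5 stood at 1.07 and 1.17 times and Hspd1 at 1.03 and 1.35 times. The knockout value of Dnajb1 rested on 7 thinned UMIs in 7 barcodes, against 53 thinned UMIs in control, so it does not show an even spread there.

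The copies were found together more often than independent detection gives. Both Hspa1a and Hspa1b were detected in 26 of the 85 control barcodes with a UMI of either, where independent detection would give 3.00, and in 15 of 42 in knockout, where it would give 2.08. Across thinned barcodes the correlation of log2(UMIs + 1) was 0.47 over 1003 control and 0.51 over 390 knockout barcodes, given as a description because barcodes of a library are not replicates. A barcode with 3 or more UMIs of the 2 copies together occurred 29 times in control (2.89%, 1.94 to 4.13) and 22 times in knockout (5.64%, 3.57 to 8.42). These barcodes held 295 of the UMIs of the pair in control, 80.8% of them, and 141, or 83.9%, in knockout. At least 1 UMI of the pair was held by 8.47% (6.83 to 10.4) of control and 10.8% (7.87 to 14.3) of knockout barcodes, and by 4.99% (3.72 to 6.52) and 5.90% (3.77 to 8.72) once thinned to 2000 UMIs. At least 2 thinned UMIs were held by 2.39% (1.54 to 3.54) and 3.59% (1.98 to 5.95). The intervals of the 2 genotypes overlapped for each of these 4 shares.

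**Figure D3:**
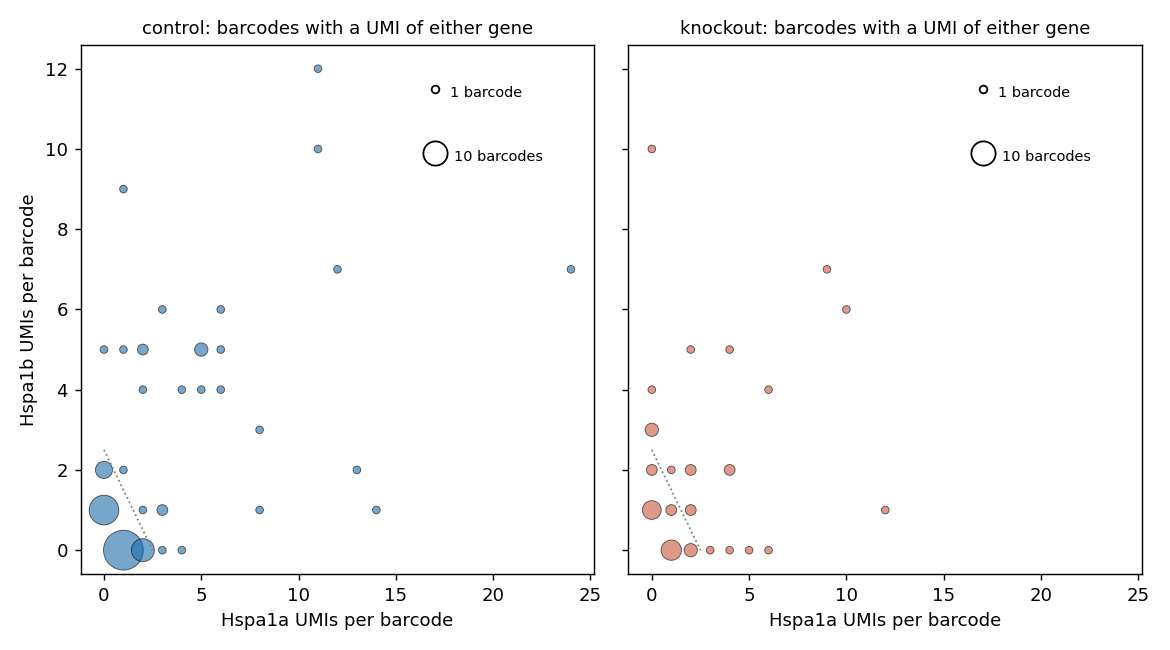
Hspa1a UMIs (horizontal axis) and Hspa1b UMIs (vertical axis) per CR barcode in the control and knockout libraries. Each circle is a pair of values, with its area in proportion to the number of barcodes. Barcodes with 0 of both are left out, and the dotted line parts barcodes with 3 or more UMIs in all, 29 in control and 22 in knockout, from those with 1 or 2.

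Barcodes with 3 or more UMIs of the pair were then compared with the 918 control and 348 knockout barcodes that held none. This split was chosen after the values had been seen and uses Hspa1a and Hspa1b, so only other genes are described. Hsph1 was at 301 against 41.4 CPM in control, 7.27-fold higher (5.50 to 9.51), and at 310 against 35.6 CPM in knockout, 8.73-fold higher (6.02 to 12.5). It had a UMI in 79.3% and 72.7% of these barcodes against 19.3% and 17.2% of the rest. Dnajb1 was 4.69-fold (2.90 to 7.29) and 6.09-fold higher (3.04 to 11.6), which became 2.79-fold (1.48 to 4.85) and 4.71-fold (2.09 to 9.69) without the barcode that held most of it. Hspe1 was 3.24-fold (2.43 to 4.24) and 3.67-fold higher (2.53 to 5.20). Hspd1 was 1.84-fold (1.29 to 2.55) and 3.32-fold higher (2.40 to 4.50). Barcodes with 1 or 2 UMIs of the pair lay between, with Hsph1 2.96-fold (2.15 to 4.0) and 5.04-fold (3.07 to 7.99) and Hspe1 2.10-fold (1.61 to 2.70) and 2.16-fold (1.29 to 3.45) above barcodes with none.

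The abundant cytosolic members and Hspa5 differed less across the same split. Hsp90aa1 was 1.54-fold (1.32 to 1.78) and 1.31-fold higher (1.08 to 1.57), Hspa8 1.47-fold (1.26 to 1.71) in control and 0.999 (0.808 to 1.22) in knockout, and Hsp90ab1 1.21-fold (1.08 to 1.35) and 0.897 (0.774 to 1.03). Hspa5 was lower, at 238 against 322 CPM in control (0.738, 0.556 to 0.963) and 228 against 311 CPM in knockout (0.733, 0.509 to 1.02). Of the 8 members other than the pair, 5 were at least 1.5-fold higher in control, against 14.2% of genes, and in knockout 3 of the 7 with at least 100 UMIs were, against 11.4%. Dnajb1 was the one below 100 UMIs there.

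Among 5019 genes with at least 100 UMIs in both libraries, Hsph1 ranked first by the lower bound of its ratio in the library where that bound was smaller. Jun, a subunit of the AP-1 transcription factor, ranked second at 4.69-fold (3.85 to 5.67) and 5.22-fold (4.05 to 6.68), followed by Hspe1. Next came Ubqln1, a ubiquilin that shuttles clients to the proteasome, at 3.41-fold (2.21 to 5.07) and 3.44-fold (1.94 to 5.78), and Rnf152, an E3 ligase of the lysosome, at 3.03-fold (2.12 to 4.24) and 2.96-fold (1.77 to 4.76). The early genes as a group, Jun included, were at 0.982 (0.902 to 1.07) and 0.899 (0.801 to 1.01), and Fos at 0.798 (0.648 to 0.973) and 0.811 (0.623 to 1.04). Jun held 128 of the 568 UMIs of the group in these control barcodes and 87 of 325 in knockout. In barcodes with none of the pair it held 688 of 14573 and 261 of 5666. The group value is therefore raised by Jun and does not give the level of the other early genes. Hspb1, the small heat shock protein HSP27, was 36.9-fold higher in control (22.3 to 61.9), where 8 of 29 barcodes held 41 UMIs with up to 17 in a single barcode, and had 1 UMI in the 22 knockout barcodes. In the knockout library 11 of its 15 UMIs lay in the 20 barcodes with 1 or 2 UMIs of the pair. Reln was at 1.03 (0.983 to 1.08) and 1.12 (1.06 to 1.18). The barcodes were deeper than the rest in control (medians of 8294 and 6184 UMIs) and less so in knockout (7047 and 6607), 4 of 29 and 1 of 22 were respiratory-high, their median mitochondrial shares were 3.17% and 4.53% against 3.26% and 3.80%, and Trp73 was detected in 27 of 29 and 21 of 22. The part of depth and of these other readouts in the result was not tested.

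**Figure D4:**
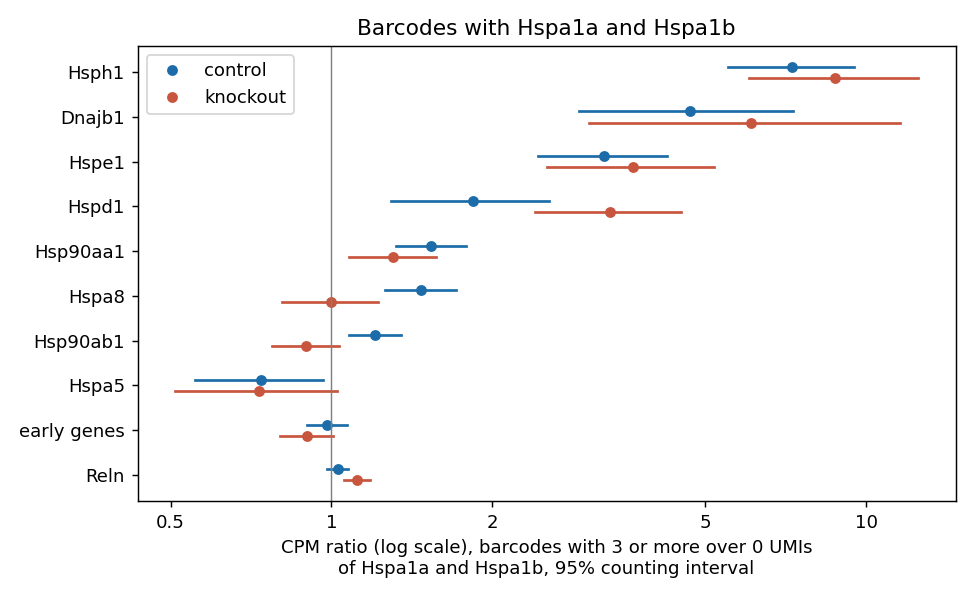
CPM ratio (horizontal axis, log scale) of barcodes with 3 or more UMIs of Hspa1a and Hspa1b over barcodes with 0, with 95% counting intervals, for the other 8 members, the 14 early genes together (Jun included) and Reln, in control (blue) and knockout (red). Hsph1 is the highest in both libraries at 7.27 and 8.73, and Hspa5 lies at 0.738 and 0.733.

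By the rule for likeness across thinned CR barcodes, the gene most like the sum of the 4 inducible members was Jun, with correlations of 0.25 in control and 0.35 in knockout. This sum holds Hspa1a and Hspa1b over the same barcodes, so it is not a separate result from the split above. Arhgef26 followed at 0.11 and 0.18, and Abr, H3f3b and Grcc10 lay between 0.09 and 0.13. For the sum of the 3 abundant cytosolic members, the 5 leading genes were Tmsb4x (0.29 and 0.28), Eef1a1 (0.28 and 0.29), Tubb5 (0.27 and 0.28), Actb (0.27 and 0.26) and Gm42418 (0.34 and 0.26). These are abundant transcripts of the cytoskeleton and of translation, apart from Gm42418, which overlaps ribosomal RNA. All were compared over 5209 genes, and library depth and free RNA are shared by all points.

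Among CR barcodes that held genes of proposed CR subsets, those with at least 2 Grik1 UMIs had the lowest sums of the 4 inducible members, at 74.9 CPM (57.0 to 96.7) over 101 control barcodes and 11.7 CPM (2.41 to 34.2, from 3 UMIs) over 34 knockout barcodes. Barcodes with at least 2 Cck UMIs were at 124 CPM (107 to 144) and 163 CPM (130 to 202), and barcodes with Chst8 or Alkal2 at 124 CPM (108 to 143) and 72.5 CPM (54.6 to 94.3). The 3 abundant cytosolic members lay between 2029 and 2963 CPM in these classes of both libraries. Their knockout over control ratio was 0.859 (0.778 to 0.948) in the Grik1 class. It was 1.24 (1.17 to 1.32) in the Cck class and 1.23 (1.16 to 1.30) in the Chst8 or Alkal2 class. The difference between these ratios was not tested.

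In the control library the faint barcodes held more of the abundant cytosolic members than CR barcodes did, whereas in knockout the intervals of these 3 held 1. Summed, the 10 members were at 5541 CPM (5168 to 5933) in control faint barcodes, 1.90-fold above CR barcodes (1.77 to 2.04), and in knockout at 4300 CPM (3683 to 4991), 1.30-fold above (1.11 to 1.51). Hspe1 was 2.62-fold (1.81 to 3.68) and 3.57-fold higher (1.82 to 6.36), and Hspa5 2.10-fold (1.69 to 2.57) and 1.86-fold (1.18 to 2.82). Hspa8 and Hsp90ab1 were 2.16-fold (1.84 to 2.52) and 1.91-fold (1.71 to 2.13) higher in control, and at 1.30 (0.894 to 1.84) and 1.25 (0.977 to 1.58) in knockout. Hsp90aa1 was 1.72-fold (1.43 to 2.04) higher in control and at 0.904 (0.572 to 1.36) in knockout. Hspa1b had 0 UMIs in the 191 control and 51 knockout faint barcodes, which allows up to 20.3 and 74.6 CPM by the limit of 3 counts. The 95% intervals of its ratio to CR barcodes, which are wider than this limit, reached 1.11 and 3.47, so a difference from CR barcodes was not detectable at this depth. Hspa1a had 3 and 1 UMIs there, and its ratio in knockout was 0.739 (0.0185 to 4.22). At least 1.5-fold higher were 6 of 10 members in control (25.9% of genes) and 3 of the 7 with at least 100 UMIs in knockout (22% of genes). In control, Hspa1a (0.623, 0.128 to 1.85, from the 3 UMIs) and Hspa1b (none) were as much lower, 2 of 10 members against 39.4% of genes, and in knockout 0 of 7 were, against 48.4%. Without the 10 faint and 10 CR barcodes that held most, the knockout sum was at 0.962 of CR barcodes (0.776 to 1.18). This setting takes 10 of 51 faint but 10 of 390 CR barcodes, chosen by the UMIs compared, so the 2 classes are not trimmed alike.

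Other readouts differed with the faint barcodes. Mitochondrial genes took 11% and 14.2% of their UMIs against 2.98% and 3.62% in CR barcodes, and Reln was detected in 77.0% and 52.9% of them. The list of 8 CR markers, which leaves out Reln, summed to 10432 CPM (9918 to 10966) in control and 7159 CPM (6356 to 8035) in knockout faint barcodes. In CR barcodes it was at 6960 and 6845 CPM. Several lists of markers of other cells were higher than in CR barcodes. The 7 astrocyte genes, all detected, summed to 1360 CPM in control and 2958 CPM in knockout, the 6 oligodendrocyte genes to 1170 CPM in control and 0 in knockout, the ependymal or choroid list to 994 and 572 CPM (2 of 4 genes detected, Ccdc153 at 0 in both) and the microglial list to 108 and 572 CPM (6 and 7 of 7 genes). In CR barcodes these lists were at 36.7 and 55.0, 16.5 and 21, 4.09 and 5.06, and 63.0 and 61.8 CPM. The mural list was at 271 and 721 CPM against 81.9 and 76.3 CPM, and the endothelial list was no higher, at 20.3 and 24.9 CPM from 3 and 1 UMIs against 34.2 and 29.3 CPM. Their part in the levels of the members was not tested. Fewer molecules per cell and cells of another type cannot be told apart in a sum over barcodes.

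Droplets without cells hold free RNA. Hspe1 was 4.98-fold (4.50 to 5.53) and 5.15-fold (4.47 to 5.94) higher in CPM in droplets than in CR barcodes, Dnajb1 4.18-fold (3.42 to 5.13) and 3.94-fold (2.92 to 5.41), Hsp90ab1 3.42-fold (3.31 to 3.52) and 2.68-fold (2.58 to 2.78), and Hspa8 3.11-fold (2.96 to 3.25) and 2.47-fold (2.34 to 2.62). Hspa1a was at 1.34 (1.04 to 1.71) and 1.27 (0.968 to 1.68). Hspa5 was the exception, at 74.4 against 316 CPM in control (0.235, 0.199 to 0.276) and 69.4 against 307 CPM in knockout (0.226, 0.194 to 0.264). At least 1.5-fold higher were 7 of 10 members in each library (32.7% and 35.8% of genes), and 1 of 10, Hspa5, was as much lower (40.3% and 37.2% of genes). The faint and droplet ratios share the CR barcodes as their denominator, so they are given side by side. Hspa5 was thus higher than in CR barcodes in the faint class and lower in droplets, whereas Hspe1 was higher in both. In knockout these faint ratios turned under 2 settings, Hspa5 to 0.344 (0.0416 to 1.25) among the 22 faint barcodes with a mitochondrial share below 10%, and Hspe1 to 0 UMIs (ratio up to 2.43) among the 21 with at least 2 Reln UMIs. The share of respiratory genes was 4.61% and 4.44% of UMIs in droplets, 2.88% and 3.27% in faint barcodes and 1.07% and 1.13% in CR barcodes.

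**Figure D5:**
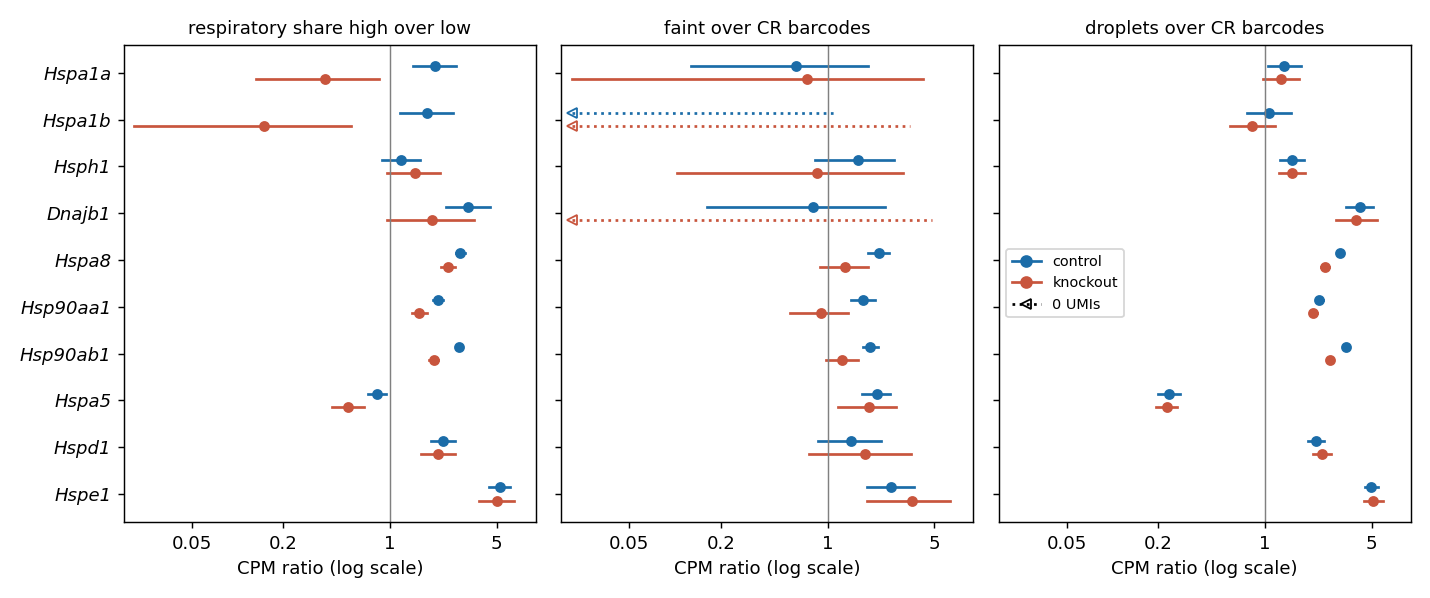
CPM ratios (horizontal axes, log scale) of the 10 genes with 95% counting intervals in control (blue) and knockout (red): respiratory-high over other CR barcodes, faint over CR barcodes, and droplets over CR barcodes. Left-pointing triangles with dotted lines mark 0 UMIs in the faint class up to the upper bound. Hspe1 lies above 1 in all 3 panels, from 2.62 to 5.22, and Hspa5 below 1 in the first and last panels.

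The wider chaperone network, 110 other genes of 9 lists found under a single identifier, was also described between genotypes. Of the 101 with at least 100 UMIs, 0 were at least 1.5-fold higher in the knockout library (2.73% of genes) and 1 was as much lower (1.66%). Intervals lay above 1 for 11 of them and below 1 for 6, where 10.9% and 9.43% of all genes had such intervals, so neither share stood above that of all genes. Their median ratio was 1.03. The gene past 1.5-fold was Hspb1, at 5.42 against 16.7 CPM (0.325, 0.176 to 0.561), and 77.3% of its 110 control UMIs lay in 10 barcodes. All 15 of its knockout UMIs lay in 8 barcodes, and the counting interval does not cover such uneven spread. The heat shock factor list had 3 genes with enough UMIs, of which 2 were higher, Hsf2 by 1.33-fold (1.13 to 1.56) and Hsbp1, which encodes a binding partner of heat shock factor 1, by 1.34-fold (1.12 to 1.61). From the chaperonin list of 14, 3 had intervals above 1 and 3 below. The TRiC subunits Cct5 (1.25-fold, 1.07 to 1.46) and Cct6a (1.23-fold, 1.05 to 1.44) were among the higher, and the prefoldins Pfdn2 (0.750, 0.621 to 0.901) and Pfdn5 (0.814, 0.729 to 0.907) among the lower. Of the 25 J proteins, Dnajb11 (1.30-fold, 1.06 to 1.58) and Dnajb14 (1.25-fold, 1.07 to 1.46) were higher and Dnajc7 (0.824, 0.700 to 0.967) lower. Hspa4l, an HSP110, was 1.25-fold higher (1.07 to 1.46), as was the nucleotide exchange factor Bag2 (1.40-fold, 1.01 to 1.93). In the ER list of 18 tested genes, Manf (1.13-fold, 1.03 to 1.23) and Calr (1.10-fold, 1.02 to 1.19) were higher and P4hb (0.841, 0.705 to 0.999) lower, beside the ratio of 0.969 for Hspa5. The 16 genes of HSP90 and its cochaperones and the 9 of mitochondrial stress held 0 genes with an interval that left out 1.

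In faint barcodes the network had a higher median ratio than all genes, 1.57 against 0.865 in control and 1.14 against 0.690 in knockout. At least 1.5-fold higher were 49 of 97 genes in control (25.9% of all genes) and 27 of 73 in knockout (22%), and as much lower were 14 (39.4%) and 15 (48.4%). The ER list gave 13 of 18 and 9 of 16 genes at least 1.5-fold higher. Named from this list were Xbp1, the transcription factor of the unfolded protein response (2.46-fold, 1.88 to 3.18 in control, but only 1.25-fold, 0.566 to 2.38 in knockout), and Canx, the lectin chaperone calnexin (2.09-fold, 1.71 to 2.52 and 1.83-fold, 1.21 to 2.66). The prefoldin Pfdn5 was 2.54-fold (1.98 to 3.21) and 2.63-fold higher (1.52 to 4.26), and Pfdn2 2.20-fold (1.40 to 3.31) and 2.70-fold (0.974 to 6.0). Dnajc3, an ER J protein, was 1.92-fold (1.16 to 2.99) and 4.40-fold higher (2.36 to 7.53), and Hsp90b1, the ER HSP90, 1.91-fold (1.51 to 2.40) and at 1.06 (0.547 to 1.87). Lower were Dnajc6, the neuronal auxilin that works with Hspa8 on clathrin coats (0.400, 0.218 to 0.673 and 0.214, 0.0258 to 0.776), Dnajc1 (0.158, 0.0430 to 0.406 and 0.318, 0.0384 to 1.16) and Atf6 (0.411, 0.133 to 0.966 and 0.874, 0.179 to 2.59). Cryab, a small heat shock protein that glia hold in quantity, was 2.90-fold (1.36 to 5.48) and 8.59-fold higher (3.78 to 17.2), and Hspa2 was 2.92-fold (1.15 to 6.23) and 11.7-fold higher (4.78 to 25), from 9 and 8 UMIs in the knockout faint barcodes. Astrocyte markers were higher in the same barcodes, and their part in these values was not tested.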

How the data were processed

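Single-cell RNA sequencing (10x Genomics 3' chemistry) was analysed from 2 libraries of sorted hippocampal cells. The authors deposited raw UMI counts per gene and barcode, made with Cell Ranger (8.0.1 and mm39 in the submitters' processing notes, software version 4 per the file headers) and without cell calls. The sources do not give 1 genome build, so positions (GENCODE, GRCm38, by Ensembl identifier) and promoters (RefSeq, GRCm38.p6) only locate the genes. Members and gene lists were chosen with earlier results of these data known, and the split by Hspa1a and Hspa1b UMIs was chosen after its values were seen. Doublets were not called here. UMIs were summed over barcodes and scaled to CPM outside symbols starting mt-, Rpl, Rps or Mrp. Sums carry exact Poisson, shares exact Clopper-Pearson and ratios exact conditional Poisson 95% intervals (Python 3.11.15, numpy 2.4.6, scipy 1.17.1, pandas 2.3.3). Intervals and the limit of 3 counts cover counting error only. Library totals were 16336796 UMIs in control and 6777071 in knockout. A gene entered a background share with at least 100 UMIs in the classes compared. Shares and spread were also computed with each barcode thinned to 2000 UMIs. From each other list, at most 2 genes a direction were named, those whose nearer bound lay farthest from 1 (for faint barcodes, with the same direction in both libraries). The 5 genes named for likeness had the highest smaller correlation of the 2 libraries. Ddit3, with 2 identifiers, was left out. The code was tested on simulated data. Alternatives covered the denominator, scaling, UMI and Reln minimum, quality limits, thinning, sex, respiratory share, free RNA and the barcodes with most.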

Additional observations from a re-analysis of the deposited data

Results flagged for a closer look

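The sum of Hspa8, Hsp90aa1 and Hsp90ab1 went opposite ways between the genotypes in 2 classes of CR barcodes. The knockout over control ratio was 1.26 (1.22 to 1.31) where respiratory genes took under 1.8% of UMIs and 0.927 (0.878 to 0.977) where they took more. With 1 library per genotype, the difference between these ratios was not tested.

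Barcodes with at least 2000 UMIs but fewer than 5 Reln UMIs were left out of the CR barcodes and held more of the 10 members. The sum was at 4843 CPM in 8 control barcodes, 1.66-fold above CR barcodes (1.43 to 1.93), and at 4685 CPM in 16 knockout barcodes, 1.41-fold above (1.23 to 1.62). The 4 inducible members had 4 and 16 UMIs there. These differences were not tested.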

How the results depend on the processing

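No paired analysis was possible because each genotype is 1 library, so the groups share fewer than 2 replicate numbers, and leaving out a replicate was not possible for the same reason. Every value rests on 1 pool of 4 animals, and depth limits the inducible members most in the 51 knockout faint barcodes.

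The genotype ratio of the summed members, 1.14, ranged from 1.12 to 1.22 over 14 alternatives. It was 1.18 as a mean of shares per barcode, 1.19 thinned to 2000 UMIs and 1.22 without respiratory-high barcodes. That of the 4 inducible members, 1.01, was 0.836 without the 10 barcodes with most of them. The count of members past 1.5-fold, 0, was 2 after thinning (Hspa1b at 1.58 and Dnajb1 at 0.661, 5.02% of genes), 1 without the 10 barcodes with most of the summed members (Hspa1b at 1.55, 4.69% of genes, against 0.774 without those with most Hspa1b itself), 1 without respiratory-high barcodes (Hspa1b at 1.53, 4.98% of genes) and 1 at 1.25-fold (Dnajb1, 19.8% of genes). Each thinning was 1 random draw. In the separate draw used for spread, Dnajb1 had 7 UMIs over 390 knockout and 53 over 1003 control barcodes, so its thinned ratio depends on the draw.

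The control faint ratio, 1.90, was 1.69 over all UMIs, 2.20 with the median ratio set to 1, 1.48 below a mitochondrial share of 10%, 2.05 as a mean of shares, 2.07 thinned to 500 UMIs and 2.28 without respiratory-high CR barcodes. The knockout faint ratio, 1.30, was 1.88 with the median ratio set to 1, 1.52 among faint barcodes with at least 2 Reln UMIs, 1.00 below a mitochondrial share of 10% and, on the other side of 1, 0.962 without the 10 barcodes with most. That last setting takes 10 of 51 faint but 10 of 390 CR barcodes, so the classes are not trimmed alike. Single members also changed sides: Hsp90aa1 in control (0.953) and Hspa5 in knockout (0.344) below a mitochondrial share of 10%, and Hspe1 in knockout (0 UMIs, ratio 0) among faint barcodes with at least 2 Reln UMIs. The cause of these shifts was not tested. Subtracting droplets of 20 to 200 UMIs, and Hspb1 without its 10 leading barcodes, were added after seeing the data. The 15 knockout UMIs of Hspb1 lay in 8 barcodes, so leaving out 10 removes them all. The resulting ratio of 0 (up to 0.382) was fixed in advance and does not check the difference.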

Other observations

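Among the chaperone lists, the chaperonin and prefoldin list and the ER list lay farthest apart by median ratio of droplets over CR barcodes. The other lists lay between, with J proteins at 1.09 in control and 1.09 in knockout. All 14 chaperonin and prefoldin genes were at least 1.5-fold higher in CPM in droplets than in CR barcodes of both libraries, where 32.7% of genes in control and 35.8% in knockout were, with median ratios of 4.10 and 3.77. Pfdn5, a prefoldin subunit, was 6.05-fold (5.66 to 6.47) and 5.71-fold (5.16 to 6.32) higher. In the ER list, 15 of 18 genes were at least 1.5-fold lower in both libraries, where 40.3% and 37.2% of genes were, with medians of 0.404 and 0.358. Calr, the ER lectin calreticulin, was at 0.30 (0.259 to 0.345) and 0.272 (0.238 to 0.310), and Canx at 0.504 (0.453 to 0.561) and 0.368 (0.328 to 0.412). Hsp90b1, the ER HSP90 held in the HSP90 list, was at 0.333 (0.287 to 0.385) and 0.246 (0.210 to 0.287). These genes were named after their values were seen. Hspa5, also of the ER, lay at 0.235 (0.199 to 0.276) and 0.226 (0.194 to 0.264).

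Hspa4l, an HSP110 protein, was 2.78-fold (1.99 to 3.80) higher in the control barcodes with 3 or more UMIs of Hspa1a and Hspa1b than in those with none, and at 1.36 (0.813 to 2.14) in knockout. Dnajb4 was at 2.06 (1.33 to 3.05) and 1.51 (0.783 to 2.67), and Bag3, a cochaperone of HSP70 in autophagy, at 1.75 (1.12 to 2.63) and 0.902 (0.382 to 1.83). The difference between the libraries was not tested.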
